A study of Bubalus bubalis with 12 samples.

Results

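The genes described here mark macrophages, dendritic cells and Langerhans cells, and were followed in the ruminal wall of dairy buffaloes fed with or without green forage. They were 10 named genes, CD302, LY75, CD207, CD68, CD163, CSF1R, ITGAM, CD14, MRC1 and AIF1, and each was taken from the row of the deposited expression table that carries its name. Of the 34037 rows of the table, 9 carried one of these names. CD163, a scavenger receptor of macrophages, had no row under that name and was not analysed here. CD302 and LY75 were selected on their FPKM, which were lower with green feed in these same animals, so their differences between the diets are given as a description and without a test. Of the other members, those with enough reads were tested.

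The samples were biopsies of the ruminal wall taken at slaughter from 12 Italian Mediterranean dairy buffaloes aged 8.2 ± 0.6 years. In the control group 6 animals were fed a total mixed ration (TMR). In the treated group 6 animals were fed a TMR that contained green ryegrass, at about 30% of the diet, for 60 days after 14 days of adaptation. Both diets were formulated to equal energy and protein, and other feed components were changed along with the ryegrass, so that the effect of the forage and of these components cannot be told apart. Stranded total RNA libraries were sequenced, 1 per animal, and the deposited values are FPKM, numbers of fragments scaled for gene length and sequencing depth.

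Macrophages engulf particles and dead cells, whereas dendritic cells take up antigen and present it to T cells. Langerhans cells are resident antigen-presenting cells of stratified epithelia, the type of epithelium that lines the rumen. Many of the receptors with which these cells bind and internalise material are C-type lectins, and the mannose receptor family (MRC1, MRC2, LY75 and PLA2R1) is the branch with a row of lectin-like domains in each protein. In RNA from whole tissue, fewer cells of a type and less RNA per cell cannot be told apart.

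The libraries held 10531541 to 12948372 fragments assigned to genes, and read numbers were recovered from the steps of the FPKM values. In the fit across 12760 genes, limma called 162 genes between the diets at a nominal p below 0.05 (1.27%). Of these genes, 60 (0.47%) were lower and 102 (0.799%) were higher in the treated group. This split was not stable, with 291 lower and 271 higher when all genes above 0 were tested, 103 and 83 without treated replicate 4, and 101 and 96 without treated replicate 5. At an adjusted p below 0.05 the count was 0 (0%), and with voom, run on the recovered reads, it was also 0 beside 145 nominal calls. The summed FPKM of the squamous epithelium genes KRT5, TP63, DSP and PKP1 ranged from 849 to 3369. The biopsies of control replicate 6 (1069) and treated replicate 6 (849) lay apart from the other 10 animals, which ranged from 2127 to 3369, and results that rest on these animals are given with and without them. KRT14 and DSC3, also epithelial markers, had no row under these names.

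Of the 8 members that were not chosen for their fall, 6 had enough reads to be tested, CD68 did not, and CD163 had no row. The number called at a nominal p below 0.05 was 0 of 6 by limma and by voom, against the 1.27% of all genes tested, and each of the 6 had an adjusted p of 0.9996. CD302 was lower in the treated group by 0.73 on the log2 scale and LY75 by 0.47. Those of the 6 tested members ranged from −0.10 for CSF1R to 0.33 for AIF1, with 95% intervals that all included 0. CD68, under the read minimum, had a log2 difference of −0.47 at 2 to 12 reads per animal.

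**Figure D1:**
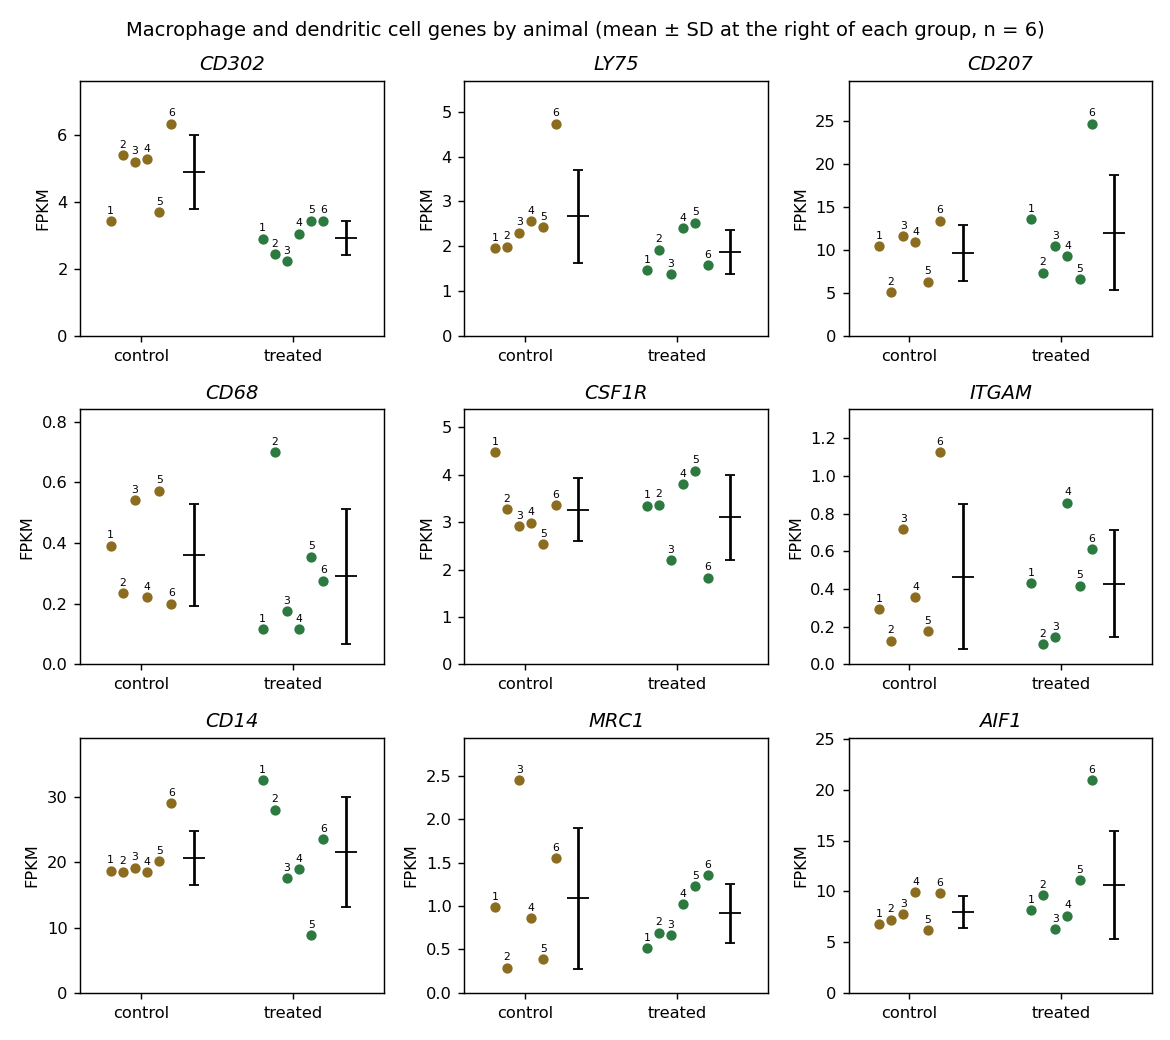
Expression (FPKM, vertical axes, each starting at 0) of the 9 genes with a row, with 1 point per animal, numbered by replicate, and the mean ± SD of each group of 6 at its right. For CD302 the lowest control animal and the highest treated animals meet at 3.44 FPKM, while for CD14, CSF1R and MRC1 the groups overlap over most of their range.

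CD302 (gene 102391843) encodes a single-pass C-type lectin of macrophages and dendritic cells that is linked to endocytosis, adhesion and migration. Its level in control replicates 1 to 6 was 3.44, 5.41, 5.21, 5.29, 3.70 and 6.35 FPKM. In treated replicates 1 to 6 it was 2.91, 2.43, 2.24, 3.06, 3.44 and 3.44 FPKM. All 6 treated animals lay below the control median of 5.25 FPKM, and 4 of them lay below every control animal. The overlap rested on control replicate 1, whose value of 3.441 FPKM was within 0.003 FPKM of treated replicates 5 (3.443) and 6 (3.444). The mean was 4.90 ± 1.11 FPKM (SD, n = 6) in the control group and 2.92 ± 0.503 FPKM (SD, n = 6) in the treated group, which is a decrease of 40.4%.

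The difference of the mean log2 values of CD302 was −0.73, given without an error because the gene was chosen for it. These values rested on 143 to 223 reads per control animal and 89 to 145 reads per treated animal. Counting error alone gives an SD of 0.12 on the log2 scale at this depth, against a residual SD of 0.30 between animals of a group. With 1 animal left out at a time, the difference lay between −0.82 and −0.65. Under the other alternatives it lay between −0.73 and −0.58, and with the mean level of leukocyte genes as a covariate it was −0.69.

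LY75 (gene 102391290) encodes DEC-205, an endocytic receptor of the mannose receptor family that delivers antigen to the processing compartments of dendritic cells and is also made by some epithelia. Its level in control replicates 1 to 6 was 1.96, 2.00, 2.30, 2.57, 2.42 and 4.74 FPKM. The treated animals, in the same order, were at 1.47, 1.92, 1.38, 2.41, 2.53 and 1.59 FPKM. Control replicate 6 stood far above all other animals, 4 treated animals lay below every control animal, and treated replicates 4 and 5 lay within the control range. The mean was 2.66 ± 1.04 FPKM (SD, n = 6) in the control group and 1.88 ± 0.492 FPKM (SD, n = 6) in the treated group, a decrease of 29.4%.

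On the log2 scale the difference of LY75 was −0.47, likewise given without an error. It rested on 161 to 338 reads per control animal and 112 to 203 reads per treated animal. Without control replicate 6 the difference was −0.29, and without both animals of low epithelial sum it was −0.25. When the mean level of smooth muscle and fibroblast genes entered the fit as a covariate, it was −0.26. The value of LY75 therefore depended on 1 control animal to a larger extent than that of CD302, which was −0.65 without the same animal.

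CD207 (gene 102402309) encodes langerin, the C-type lectin that forms the Birbeck granules of Langerhans cells. In control replicates 1 to 6 it was at 10.4, 5.09, 11.6, 10.9, 6.32 and 13.4 FPKM. In treated replicates 1 to 6 it was at 13.6, 7.35, 10.4, 9.30, 6.58 and 24.7 FPKM. The groups overlapped almost completely, apart from treated replicate 6, which was far above the rest. The mean was 9.63 ± 3.22 FPKM (SD, n = 6) in the control group and 12 ± 6.69 FPKM (SD, n = 6) in the treated group. The log2 difference was 0.25 (SE 0.32, 95% interval −0.44 to 0.93, nominal p = 0.456, exact permutation p = 0.509). Without treated replicate 6 it was 0.0067. The langerin transcript thus did not differ between diets beyond the spread between animals.

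CD14 (gene 102399257), a co-receptor for bacterial lipopolysaccharide on monocytes and macrophages, had the highest level of the members. Its level in control replicates 1 to 6 was 18.7, 18.6, 19.2, 18.5, 20.2 and 29.1 FPKM. The treated animals were, in this order, at 32.5, 28.1, 17.6, 18.9, 8.87 and 23.6 FPKM. The control animals other than replicate 6 were close together, whereas the treated animals included both the highest and the lowest value of the experiment. The log2 difference was −0.032 (SE 0.26, 95% interval −0.59 to 0.52, nominal p = 0.903, exact permutation p = 0.922), with 20.7 ± 4.14 FPKM in the control and 21.6 ± 8.37 FPKM in the treated group (SD, n = 6).

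ITGAM (gene 102396526) encodes CD11b, the integrin chain that with ITGB2 forms the complement receptor of monocytes, macrophages and neutrophils. It was low, at 0.292, 0.127, 0.717, 0.357, 0.176 and 1.13 FPKM in control replicates 1 to 6. The corresponding treated values were 0.433, 0.108, 0.144, 0.858, 0.419 and 0.61 FPKM. These levels correspond to 6 to 55 reads, and both groups spanned most of the range. The log2 difference was −0.056 (SE 0.62, nominal p = 0.929, exact permutation p = 0.937), with a 95% interval from −1.38 to 1.27 that is the widest of the members tested. The direction was not stable, since the difference was 0.27 without control replicate 6 and 0.78 with the smooth muscle and fibroblast covariate.

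AIF1 (gene 102393629) encodes IBA1, an actin-binding protein of macrophages and microglia. Its level in control replicates 1 to 6 was 6.76, 7.23, 7.73, 9.90, 6.17 and 9.84 FPKM. The treated group, in order, was at 8.17, 9.66, 6.30, 7.62, 11.1 and 20.9 FPKM. Treated replicates 5 and 6 exceeded every control animal, and the other 4 lay within the control range. The log2 difference was 0.33 (SE 0.25, 95% interval −0.21 to 0.86, nominal p = 0.212, exact permutation p = 0.273). Without treated replicate 6 it was 0.11.

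CSF1R (gene 102414145), the receptor through which the growth factors CSF1 and IL34 sustain macrophages and Langerhans cells, was at 4.48, 3.27, 2.91, 2.99, 2.54 and 3.35 FPKM in control replicates 1 to 6. In the treated group the values were 3.35, 3.37, 2.20, 3.79, 4.08 and 1.83 FPKM. The highest value was that of a control animal and the lowest 2 values were those of treated animals, with the rest mixed. The log2 difference was −0.10 (SE 0.22, 95% interval −0.58 to 0.37, nominal p = 0.643, exact permutation p = 0.656). Its ligand CSF1 was at 3.71 ± 0.793 FPKM in the control and 4.17 ± 1.15 FPKM in the treated group (SD, n = 6), a log2 difference of 0.14 (exact permutation p = 0.556). The other ligand, IL34, was at a mean of 0.152 FPKM over all animals and had too few reads to be tested.

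MRC1 (gene 102414758) encodes the macrophage mannose receptor, CD206. It was at 0.985, 0.290, 2.45, 0.861, 0.386 and 1.56 FPKM in control replicates 1 to 6. Treated replicates 1 to 6 were at 0.517, 0.695, 0.667, 1.03, 1.23 and 1.36 FPKM, all inside the control range. The mean was slightly lower in the treated group (1.09 ± 0.807 against 0.915 ± 0.339 FPKM, SD, n = 6), whereas the log2 difference was 0.026 (SE 0.48, 95% interval −1.0 to 1.05, nominal p = 0.957, exact permutation p = 0.961). The sign thus depended on the scale. Its family member MRC2, an endocytic collagen receptor, was at 0.992 ± 0.319 and 0.989 ± 0.414 FPKM.

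CD68 (gene 102398185), a lysosomal glycoprotein of macrophages, was at the limit of detection. It was at 0.391, 0.236, 0.543, 0.221, 0.573 and 0.20 FPKM in control replicates 1 to 6. The treated values, in order, were 0.117, 0.700, 0.175, 0.116, 0.356 and 0.276 FPKM. These values are 2 to 12 reads per animal, with 3 reads or fewer in 4 animals, and counting error alone gives an SD of 0.72 on the log2 scale. The log2 difference was −0.47 (exact permutation p = 0.331), which at this depth could not be told apart from 0.

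**Figure D2:**
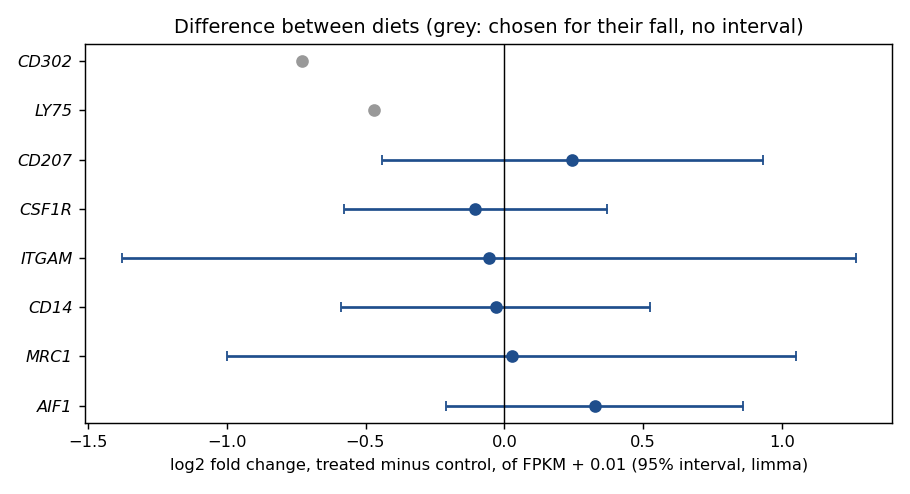
Difference between the diets (treated minus control) in mean log2(FPKM + 0.01), with points for the estimate of the 8 members that reached the read minimum and bars for the 95% interval of limma. CD302 and LY75 (grey) were chosen for this difference and are drawn without an interval, and the intervals of the other 6 include 0.

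Because FPKM are scaled by gene length, levels can be set side by side across genes. Over the 12 animals the mean level fell in the order CD14 (21.1 FPKM), CD207 (10.8), AIF1 (9.29), CD302 (3.91), CSF1R (3.18), LY75 (2.27), MRC1 (1.00), ITGAM (0.447) and CD68 (0.325). The step from AIF1 to CD302 was seen in 12 of 12 animals, as was that from MRC1 to ITGAM. CD14 exceeded CD207, CSF1R exceeded LY75 and LY75 exceeded MRC1 in 11 of 12 animals each. The neighbours CD207 and AIF1 (9 of 12 animals), CD302 and CSF1R (7 of 12) and ITGAM and CD68 (7 of 12) could not be separated beyond their spread. For CD302 and CSF1R the order differed by diet, with CD302 the higher in 5 of 6 control animals and in 2 of 6 treated animals. Because CD302 was chosen for its fall with green feed, this change of order follows from the choice and is no separate result. The level of CD207 was between 4.73 and 26.3 times that of MRC1 in the same animal, with a median of 11.6. By level, CD14 was above 77.4% of the genes tested, CD207 above 59.2%, CD302 above 32.8% and LY75 above 22%, whereas MRC1 was above 9.64% and ITGAM above 2.86%.

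The members also differed in how much they varied between animals of 1 group. The residual SD on the log2 scale was largest for ITGAM (1.15) and MRC1 (0.90), higher than in 96.5% and 93.3% of the genes tested. CD207 followed with 0.63 (82.1%), CD14 with 0.50 (70.3%), AIF1 with 0.47 (66.8%) and LY75 with 0.42 (59.6%). CSF1R (0.38, 53.3%) and CD302 (0.30, 38.8%) varied least. Counting error was a small share of this spread, with an SD between 0.06 for CD14 and 0.38 for ITGAM.

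Further genes of the same cells were taken from 4 lists of 89 genes, of which 78 had a row and 40 had enough reads to be tested. The number called at a nominal p below 0.05 was 0 of 40 by limma, against 1.27% of all genes, and 1 of 40 by voom (PLA2R1). Of the 40 genes, 23 had a lower and 17 a higher estimate in the treated group, with a median log2 difference of −0.043 beside a median of 0.0051 over all genes tested.

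In the myeloid core list, which holds receptors, adaptors and factors shared by most myeloid cells, 10 of 18 genes were tested, 5 with a lower and 5 with a higher estimate (median 0.013). FCGRT, the neonatal Fc receptor, was at 14.8 ± 4.56 FPKM in the control and 15.0 ± 3.95 FPKM in the treated group. PTPRC, the pan-leukocyte phosphatase CD45, was at 10.4 ± 2.59 and 9.61 ± 2.64 FPKM (log2 difference −0.13, exact permutation p = 0.608). LAPTM5, a lysosomal protein of leukocytes, was at 9.30 ± 1.82 and 9.27 ± 3.22 FPKM. The adaptors TYROBP and FCER1G and the myeloid transcription factor SPI1 reached at most 37 reads in an animal and were under the read minimum.

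In the macrophage identity list, 10 of 21 genes were tested, 8 with a lower and 2 with a higher estimate (median −0.15). SLC40A1, the iron exporter ferroportin, was at 45.3 ± 17.4 FPKM in the control and 36.5 ± 10.4 FPKM in the treated group (log2 difference −0.22, exact permutation p = 0.561). GPNMB, a lysosomal glycoprotein, was at 27.6 ± 24.3 and 27.7 ± 30.7 FPKM. MARCO and CD5L, genes typical of some tissue macrophages, were listed at 0 in all 12 animals, and TREM2, SIGLEC1 and VSIG4 reached at most 5 reads in an animal. The tissue thus carried few reads of these genes, which were named after their values were seen. Other genes of the list passed the read minimum, among them STAB1, NR1H3 and MAF, with up to 301, 229 and 148 reads.

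In the dendritic and Langerhans cell list, 13 of 25 genes were tested, 6 with a lower and 7 with a higher estimate (median 0.012). CXCL14, a chemokine made by epithelia that attracts dendritic cell precursors, was at 42.3 ± 11.5 FPKM in the control and 30.4 ± 13.2 FPKM in the treated group (log2 difference −0.56, nominal p = 0.0780, exact permutation p = 0.139). CCL20, the ligand of the Langerhans cell receptor CCR6, was at 26 ± 17.8 and 25.8 ± 26.1 FPKM. ID2, a transcription factor that Langerhans cells need, was at 10.3 ± 2.62 and 14.7 ± 9.25 FPKM (log2 difference 0.32, exact permutation p = 0.455). FLT3, the growth factor receptor of dendritic cells, and XCR1 and CLEC9A, which mark a subset of conventional dendritic cells, reached at most 28, 3 and 1 reads. Other genes of the list passed the read minimum, among them ZBTB46, IRF8 and CCR6, with up to 49, 97 and 58 reads.

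In the list of further C-type lectin receptors, 7 of 25 genes were tested, 4 with a lower and 3 with a higher estimate (median −0.061). PLA2R1, the phospholipase A2 receptor of the mannose receptor family, was at 26.9 ± 6.86 FPKM in the control and 33.7 ± 5.73 FPKM in the treated group. Its log2 difference of 0.34 (SE 0.16, nominal p = 0.0529, exact permutation p = 0.0714) was opposite in sign to that of its relative LY75. COLEC12, a scavenger receptor of vessels, was at 6.70 ± 4.47 and 4.25 ± 2.78 FPKM, and CLEC3B, a secreted plasminogen-binding lectin, at 6.10 ± 2.23 and 4.76 ± 2.36 FPKM, neither with a nominal p below 0.05.

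**Figure D3:**
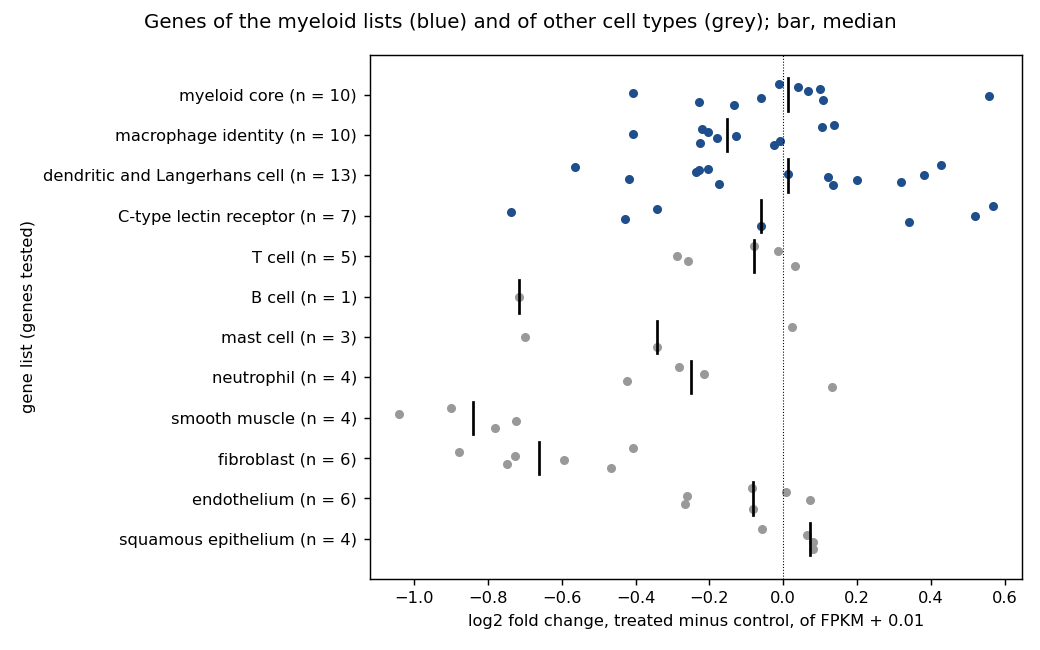
Log2 difference between the diets (treated minus control, horizontal axis) of each tested gene, by list, with a bar at the list median. The 4 myeloid lists (blue) have medians between −0.15 and 0.013, while the lists of smooth muscle (−0.84) and fibroblasts (−0.66) lie to the left of 0.

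Lists of other cells of the wall were read in the same way. All 6 fibroblast genes (median −0.66) and all 4 tested smooth muscle genes (median −0.84) had lower estimates in the treated group. DES, the muscle intermediate filament, was the one gene called (log2 difference −1.04, nominal p = 0.0271, exact permutation p = 0.0519). The summed FPKM of the fibroblast genes ranged from 40.8 to 258 in the control and from 17.5 to 172 in the treated animals, and that of the smooth muscle genes from 13.1 to 31.2 and from 4.28 to 23.1. With the mean log2 level of these genes as a covariate, the difference of CD302 went from −0.73 to −0.65 and that of LY75 from −0.47 to −0.26. The part of these cells in either difference was not tested otherwise. For the T cell genes 4 of 5 had a lower estimate (median −0.081, sums 30.9 to 55.0 and 24.4 to 55.2), for the mast cell genes 2 of 3 (median −0.34, sums 8.31 to 15.7 and 5.56 to 21.9) and for the endothelial genes 4 of 6 (median −0.083, sums 10.4 to 32.7 and 6.97 to 35.2). The neutrophil genes, of which 3 of 4 had a lower estimate (median −0.25), summed to between 2871 and 12252 FPKM. That sum was carried by S100A8 and S100A9, which keratinocytes also make. The 1 tested B cell gene had an estimate of −0.72. Of the 4 tested squamous epithelium genes, 3 had a higher estimate (median 0.072).

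**Figure D4:**
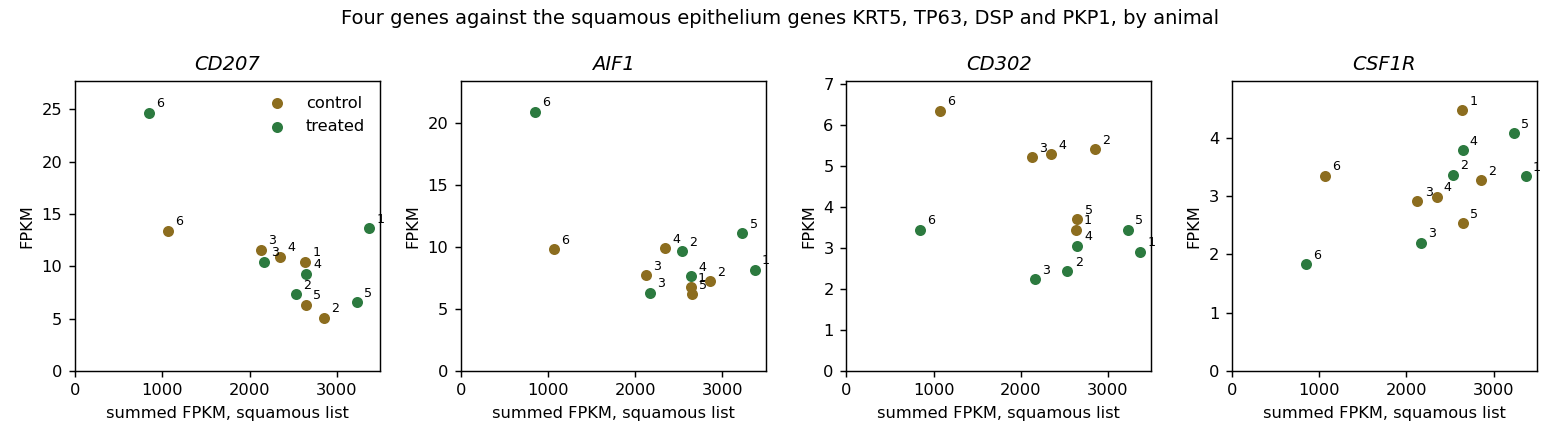
FPKM of CD207, AIF1, CD302 and CSF1R (vertical axes) against the summed FPKM of 4 squamous epithelium genes (horizontal axis), with 1 numbered point per animal in brown (control) and green (treated). Control replicate 6 (1069) and treated replicate 6 (849) lie apart at the left, and they hold the highest CD302 of the control group and the highest CD207 and AIF1 of the treated group.

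The 2 animals with a low squamous epithelium sum recurred among the extreme values. That sum was carried mostly by KRT5 (mean 1493 FPKM) and DSP (553). TP63 spanned only 32.3 to 46.7 FPKM in the control and 29.3 to 50.6 FPKM in the treated animals, so the sum is not a measure of all epithelial RNA. Control replicate 6 had the highest control value of CD302, LY75, CD207, ITGAM and CD14, which is 5 of the 9 members. Treated replicate 6 had the highest treated value of CD302, CD207, MRC1 and AIF1, and the lowest of CSF1R. Without both animals the log2 difference was 0.12 for CD207 and 0.17 for AIF1, and the differences of CSF1R (0.049), ITGAM (0.11) and CD14 (0.022) changed sign. None of the 6 tested members was called without these animals.

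CD302 and LY75 are neighbours in the human genome, where transcripts that read from one into the other are known. In the buffalo annotation used for gene names (assembly NDDB_SH_1, another build than that of the expression values), the identifier of LY75 stood between PLA2R1 and MARCHF7, with BAZ2B beyond. The identifier of CD302 was the one among the 9 members that this annotation did not list, so that its place was not determined here. PLA2R1 had a higher estimate in the treated group, as given above, and the genes on the other side had slightly lower ones. MARCH7 (MARCHF7), a ubiquitin ligase, was at 31.9 ± 4.11 FPKM in the control and 28.9 ± 1.93 FPKM in the treated group (log2 difference −0.13, SE 0.10). BAZ2B, a bromodomain protein, was at 10.1 ± 1.90 and 9.32 ± 1.53 FPKM (log2 difference −0.11, SE 0.16). Whether reads of CD302 and LY75 were shared by the counting was not tested.

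Co-variation between the animals was then compared with the group means removed, so that the diet contrast did not enter. Of 36 pairs among the 9 members, 22 had a Pearson r above 0, with a median of 0.109 and a range from −0.44 for CD207 and CSF1R to 0.75 for ITGAM and MRC1. A raw permutation p below 0.05 was reached by 5 pairs and an adjusted p below 0.05 by 0 pairs, the smallest being 0.224. Other pairs had an r below 0, among them CD68 and ITGAM (−0.40).

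For CD302 and LY75 r was 0.56 (permutation p = 0.0761, adjusted p = 0.342) and Spearman's rho 0.49 (p = 0.124), over 12 animals. Within the control group r was 0.61 and within the treated group 0.48, and without the 2 animals farthest from the median of CD302 (control replicates 1 and 5) it was 0.54. Without control replicate 6, which was highest for both genes, r was 0.37 over all animals and 0.24 within the control group, and without treated replicate 6 as well it was 0.49 over 10 animals. This r was higher than that of LY75 with 94.2% of all genes tested. For ITGAM and MRC1, r was 0.75 (permutation p = 0.00677, adjusted p = 0.224) and rho 0.76 (p = 0.0096), with 0.91 in the control and 0.54 in the treated group, and 0.71 without the 2 farthest animals. CD302 and AIF1 had an r of 0.64 (permutation p = 0.0124, adjusted p = 0.224) and a rho of 0.75 (p = 0.00595), with 0.65 without the 2 farthest animals. CD302 and ITGAM had an r of 0.64 (permutation p = 0.0372, adjusted p = 0.315) and a rho of 0.52 (p = 0.109), with 0.68 without these animals and 0.49 without both animals of low epithelial sum. CD207 reached a raw p below 0.05 with ITGAM (r 0.62, rho 0.67, adjusted p = 0.315) and with MRC1 (r 0.57, rho 0.59, adjusted p = 0.315). Without its 2 farthest animals, which include treated replicate 6, r was 0.53 and 0.39. The groups differed, with an r of 0.91 and 0.92 in the control and 0.39 and 0.16 in the treated group. Without treated replicate 6 the r of the treated group was 0.18 with ITGAM and −0.75 with MRC1. CD14, the most abundant member, had an r between −0.23 and 0.45 with the others.

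**Figure D5:**
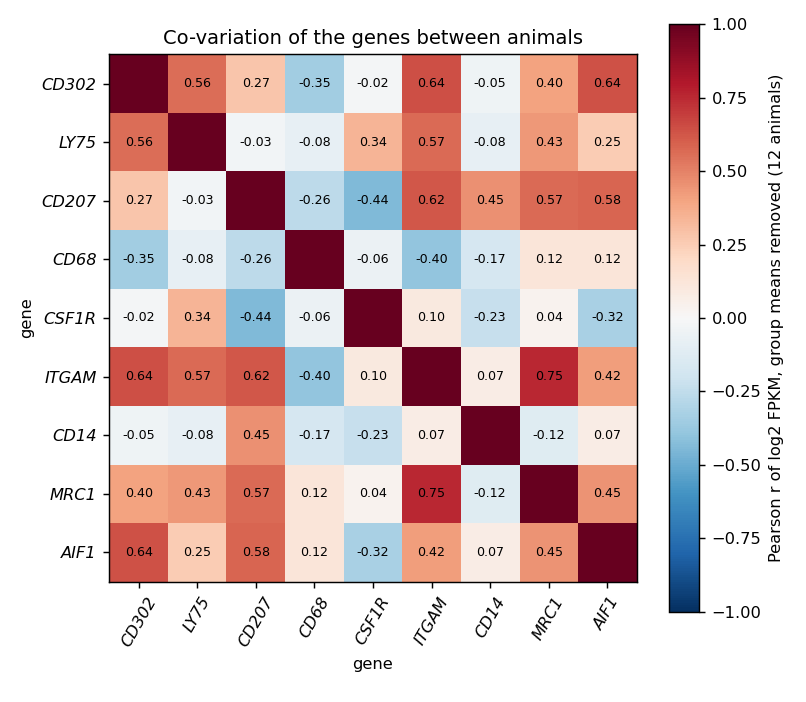
Pearson r of log2(FPKM + 0.01) between the 9 genes over 12 animals, after the mean of each group was removed, with red for positive and blue for negative values. The highest off-diagonal value is 0.75 (ITGAM and MRC1) and the lowest −0.44 (CD207 and CSF1R), and the rows of CD14, CD68 and CSF1R are mostly pale.

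The genes with the pattern most like that of CD302 over the 12 animals were LOC112584823 (r = 0.90), FAM171B (0.88), STXBP6 (0.87), LOC102389586 (0.86) and LOC112587423 (0.85). For LY75 they were LOC102412473 (0.93), MPP6 (0.90), ZNF317 (0.88), FUT10 (0.87) and LOC102392363 (0.87). For CSF1R they were LOC102392263 (0.92), LOC102394968 (0.92), LOC102413645 (0.91), LOC112587905 (0.91) and CHTF8 (0.91). None of these 15 genes was another member or a gene of the myeloid lists, and with 12 animals and 12760 genes such values are the extremes of many comparisons.

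The members were also set against the mean log2 levels of 4 other lists (smooth muscle with fibroblast, squamous epithelium, T cell and endothelium), in 36 comparisons chosen after the data were seen. Of these, 0 had an adjusted p below 0.05 and 6 had a raw permutation p below 0.05. MRC1 and the smooth muscle and fibroblast genes had an r of 0.68 (permutation p = 0.0038, adjusted p = 0.137) and a rho of 0.69 (p = 0.0117), with an r of 0.72 without the 2 farthest animals and 0.65 without both animals of low epithelial sum. For ITGAM and the same genes r was 0.63 (permutation p = 0.0361, adjusted p = 0.26) and rho 0.58 (p = 0.0641), with 0.73 and 0.60 without these animals. For CD302 r was 0.24 (permutation p = 0.441, adjusted p = 0.755), rho 0.22 (p = 0.477) and r without the 2 farthest animals 0.16. ITGAM and the T cell genes had an r of 0.60 (permutation p = 0.0487, adjusted p = 0.27) and a rho of 0.61 (p = 0.0533), with 0.33 without the 2 farthest animals.

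Against the squamous epithelium genes, CD207, AIF1 and MRC1 had raw permutation p-values of 0.0109, 0.0265 and 0.0132, and adjusted p-values of 0.158, 0.238 and 0.158, all with a negative r. Since control replicate 6 and treated replicate 6 lay apart in this measure, r is given over the other 10 animals. It was −0.31 for CD207, −0.044 for AIF1 and −0.71 for MRC1. Leaving out control replicate 6 alone gave −0.72 for CD207 and −0.77 for AIF1. Leaving out treated replicate 6 alone gave −0.50 and −0.35. Over the 10 animals, r within the control group was −0.84 for CD207, −0.56 for AIF1 and −0.88 for MRC1. Within the treated group it was 0.37, 0.38 and −0.50. The negative r of CD207 and of AIF1 within the treated group (−0.74 and −0.79 with all animals) thus rested on treated replicate 6, whereas that of MRC1 did not.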

How the data were processed

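Ruminal wall RNA of 6 control and 6 treated buffaloes was compared. The authors checked reads with FastQC 0.11.5, trimmed them with Trimmomatic 0.39 (base quality 25, length 35), mapped them to the UOA_WB_1 genome (STAR 2.5.2b) and counted fragments by strand with featureCounts 2.0.0 (mapping quality 30 or more). The values deposited by the authors are FPKM, and the tool and gene lengths behind them are not given in the sources used here. Of the 16 value columns, 12 matched an animal by its label and 4 matched none and were not used.

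Within a gene, FPKM are whole multiples of 1 read. Reads were recovered for all 22972 genes above 0, and 100% of values came out whole within 0.001 reads. For a gene of median length 1 read is worth 0.0257 FPKM. Genes with at least 40 reads, at a common depth, in 1 animal or more were tested (12760) with limma 3.58.1 in R 4.3.3 (lmFit, eBayes with trend) on log2(FPKM + 0.01), a scale that understates changes of low genes, with Benjamini-Hochberg adjustment. Calls were made at a nominal p below 0.05. Single genes were also tested by a two-sided exact permutation test over 924 assignments (smallest possible p 0.00216). Correlations used 100000 permutations within groups. The code was tested on simulated data.

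The members, lists and naming rule were chosen with earlier results of these data known. Named were all members, called genes and the 3 most expressed genes of each myeloid list, the neighbours of LY75 and CD302, and the 5 genes most like CD302, LY75 and CSF1R. The values of 1 gene that this rule names are not reported here. Further list genes (MRC2, CSF1, IL34, DES, STAB1, NR1H3, MAF, ZBTB46, IRF8, CCR6 and those low or at 0) were named after their values were seen. Alternatives were other pseudocounts, filters and scaling, robust fits, voom, a replicate block, covariates, each animal left out and, chosen after seeing the data, both animals of low epithelial sum left out. Python 3.11.15, scipy 1.17.1 and matplotlib 3.10.9 were used.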

Additional observations from a re-analysis of the deposited data

Results flagged for a closer look

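In 18 checks, for 9 genes in both groups, the gap of the highest or lowest animal to its nearest neighbour was compared with the range of the group, and chance marks about 1 in 20 groups. LY75 in control replicate 6 was at 4.74 FPKM, with a gap of 0.781 of the range to the other control animals. CD14 in control replicate 6 was at 29.1 FPKM, with a gap of 0.846 of the range. AIF1 in treated replicate 6 was at 20.9 FPKM, with a gap of 0.672 of the range. All 3 values belong to the 2 animals whose squamous epithelium sum was lowest (1069 and 849 against 2127 or more), and the part of that difference in these values was not tested.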

How the results depend on the processing

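Leaving aside CD302 and LY75, which were not tested, the count of members called remained 0, and that of genes at an adjusted p below 0.05 remained 0, in all 23 alternatives, and no pair of members passed the adjusted threshold in 17. The differences of CD207 and AIF1 kept their direction in 23 of 23, though these alternatives reuse the same animals. Without treated replicate 6 they shrank to 0.0067 and 0.11. The differences of CD302 and LY75 also kept their direction, but both genes were chosen for their fall in these same animals. Their stable direction is therefore a description and no support. The 162 genes with a nominal p below 0.05 became 562 with all genes above 0, 301 with at least 0.1 FPKM in 6 animals, 340 with the smooth muscle and fibroblast covariate and 317 without both animals of low epithelial sum. They ranged from 144 to 331 with 1 animal left out, the latter without treated replicate 6. Of the 40 myeloid list genes tested, 1 was called with voom (PLA2R1), beside 145 of all 12760 genes tested. The smooth muscle and fibroblast covariate gave 2 (ID2 and PLA2R1), beside the 340 of all genes. The leukocyte covariate gave 1 (CSF2RB), beside 149 of all genes. Leaving 1 animal out gave 0 to 1 (PLA2R1, CXCL14, SLC40A1 or CSF2RB), beside the 144 to 331 of all genes.

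Same-numbered animals of both groups are different animals, so the samples were not treated as paired. The numbers are those of the sample descriptions, and in the sample titles no same-numbered pair shares a number. The labels thus name no block or batch behind them. Their deviations nevertheless correlated by −0.013 to 0.41, over 0.1 in 4 of 6 pairs. The mean over the same-numbered pairs was 0.21. With the group means removed, the mean for pairs with different numbers (−0.039) is largely fixed by that value and is no separate baseline. The reason for the correlation was not tested. With a replicate block, 326 of all 12760 genes tested and 3 of the 40 myeloid list genes tested (CD83, CXCL14 and PLA2R1) were called. Leaving aside CD302 and LY75, which were not tested, 0 members were called.

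Differences near 0 changed sign. ITGAM was at 0.78 with the smooth muscle and fibroblast covariate, 0.14 with the leukocyte covariate, 0.11 without both animals of low epithelial sum and −0.34 to 0.27 with 1 left out. MRC1 was at −0.0037 and −0.058 with pseudocounts of 0.1 and 1, 0.73 with the smooth muscle and fibroblast covariate, and −0.28 to 0.33 with 1 left out. CSF1R was at 0.049 without both animals and −0.19 to 0.036 with 1 left out, and CD14 at 0.022 and −0.17 to 0.20. The cause of these changes was not tested. The depth left CD68, with 2 to 12 reads, without a usable comparison.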
